A study of Caenorhabditis elegans with 12 samples.

Results

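The genes of the dystrophin glycoprotein complex followed here included *sgca-1*, *sgcb-1* and *sgn-1*, which encode sarcoglycans, and *stn-1* and *stn-2*, which encode syntrophins. The dystrobrevin gene *dyb-1* and *dyc-1* completed the list. These genes were chosen by name, with H22K11.4 taken as the locus name of *sgca-1*. All probe sets annotated to them were kept and each was reported apart. This gave 7 genes of 17138 with a probe set of their own and 13 probe sets of 22548 that were not controls. Other genes of the complex on the array, such as the dystrophin gene *dys-1* and the dystroglycan gene *dgn-1*, were read separately. In each of 12 samples, about 80 *Caenorhabditis elegans* embryos collected at the one-cell and two-cell stage were profiled on an Affymetrix array, with 3 independent samples (replicates A, B and C) at each of 4 time points. All were of strain KM267, in which *hlh-1*, the nematode relative of the vertebrate myogenic gene MyoD, is driven by a heat shock promoter. The 2 h, 4 h and 6 h samples had stood for 60 min at room temperature, received a pulse of 34 °C for 30 min, and were kept at room temperature for the named number of hours. The 0 h samples, which carry the same transgene, were taken before any heat pulse. No embryos that were pulsed without the transgene were analysed here, and in comparisons with 0 h an effect of HLH-1, one of heat and one of developmental time cannot be told apart. Among the pulsed samples, time since the pulse and embryo age rise together, so these effects cannot be told apart there either.

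In striated muscle the dystrophin glycoprotein complex links the actin cytoskeleton to the extracellular matrix. Dystrophin and dystrobrevin lie beneath the membrane, dystroglycan and the sarcoglycans span it, syntrophins are adaptors on the cytoplasmic side, and laminin is the ligand outside. In *C. elegans* the complex is present in body wall muscle, and animals that lack dystrophin, dystrobrevin, STN-1 or DYC-1 share a hyperactive, head-bending movement. Human mutations in dystrophin and in sarcoglycans cause muscular dystrophies.

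All 7 genes were higher at 6 h than at 0 h at 1 or more of their probe sets, although the call for *dyb-1* was lost under several other settings. For the sarcoglycan gene *sgn-1*, the syntrophin gene *stn-2* and 2 of 4 *sgca-1* probe sets the difference was at least 140-fold, with dim signals raised to a common reference level. At 4 h, 5 genes were higher than at 0 h, namely *sgca-1*, *sgcb-1*, *sgn-1*, *stn-1* and *stn-2*. For *sgca-1* this held at 2 of 4 probe sets, and both calls were lost with dim signals raised to the reference level. At 2 h, when *hlh-1* signal was at its highest, no tested probe set of these 7 genes passed the test in either direction. *dyc-1* was called at 6 h and not at 4 h. In whole embryos, more cells of a type and more RNA per cell cannot be told apart.

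Values are MAS5 signals, which are array brightness on a linear scale with each array brought to one trimmed mean. A signal of 69.7 served as a reference level for dim probe sets (the 40th percentile of an array, as the median of 12 arrays). Of the 13 probe sets, 12 exceeded it in at least 3 arrays and were tested, and 11 of these would have passed without the 6 h arrays. The exception was *sgca-1* 175593_at, which passed through its 6 h signals. Changes are differences of mean log2 signal with the standard error (SE) of a limma fit over all 18264 tested probe sets, and a change was called where the adjusted p was under 0.05 and the fold was 1.7 or more. Folds compare means of log2 signals. Where an array of either group was at or below the reference level, lower signals of the dimmer group were raised to it and the fold is written as "at least".

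Of 12 tested probe sets, 10 were called higher at 6 h than at 0 h, set beside 21.7% of all tested probe sets, and none was called lower, set beside 15.6%. The count lower was also 0 at an unadjusted p under 0.05. The median log2 change over the 12 was 5.29, and that over all tested probe sets was 0.31. With every signal raised to the reference level the medians were 4.88 and 0.17. The 10 calls covered all 7 genes.

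At 4 h against 0 h, 7 probe sets of 5 genes were called higher, where 17.1% of all tested probe sets were, and none was called lower, where 11.9% were. The median log2 change was 2.93 over the 12 probe sets and 0.16 over all, or 0.84 and 0.06 with signals raised. At 2 h against 0 h no member probe set was called higher, against 15.5% of all, or lower, against 9.55% of all, and at an unadjusted p under 0.05 the counts were 1 higher and 2 lower. By fold alone 7 of the 12 were lower and 2 were higher at 2 h, where 24.9% of all tested probe sets were lower and 29.9% higher. The median log2 change of the 12 was -0.83, or -0.17 with signals raised.

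**Figure D1:**
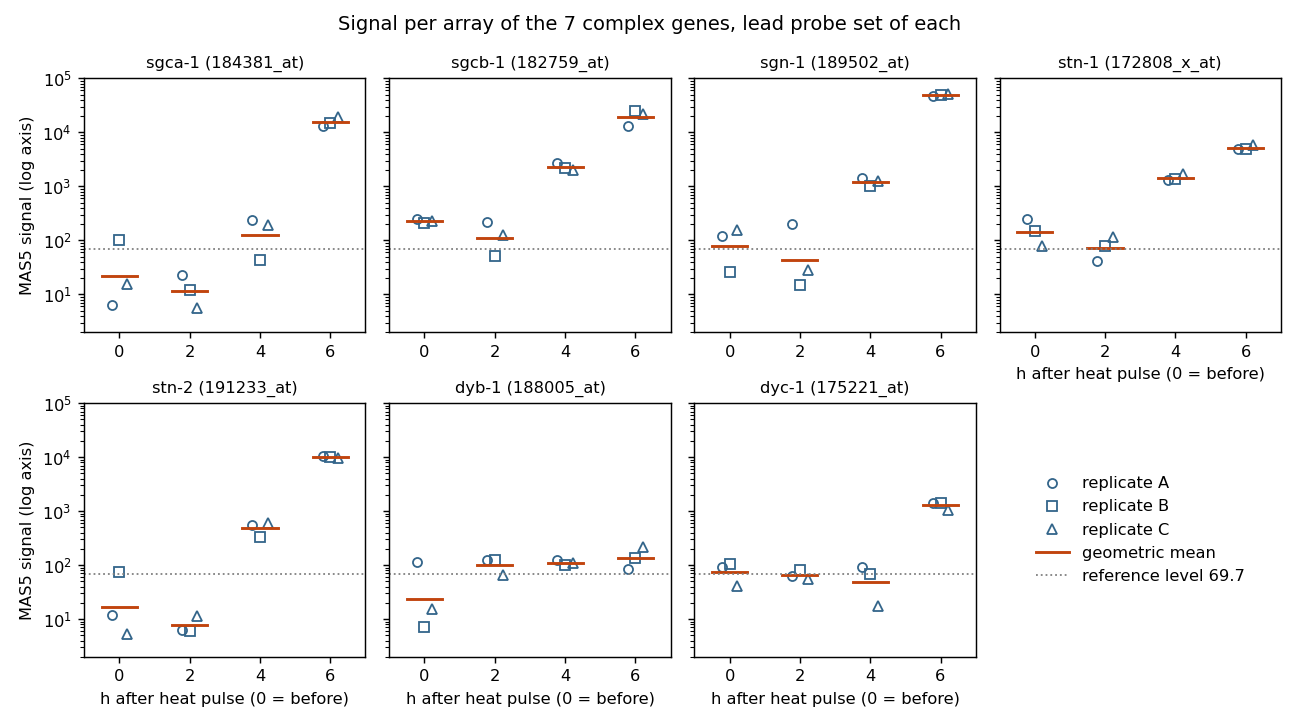
MAS5 signal (log axis) of the lead probe set of each gene, which is the one with the highest mean log2 signal, at 0, 2, 4 and 6 h. Each point is 1 array, the bar is the geometric mean of 3 arrays and the dotted line is the reference level of 69.7. The 6 h arrays lie above all earlier arrays in every panel except that of *dyb-1*.

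The sarcoglycans are single-pass membrane proteins that form a subcomplex beside dystroglycan. *sgn-1*, which encodes the gamma and delta sarcoglycan relative, had signals of 120.6, 26.1 and 156.7 at 0 h, 199.1, 14.9 and 28.3 at 2 h, 1436, 1006 and 1246 at 4 h, and 46916, 49748 and 52253 at 6 h in replicates A, B and C. The 4 h arrays were above all earlier arrays and the 6 h arrays were above all 4 h arrays. Mean signal was 49639 ± 2670 at 6 h, against 101 ± 67.4 at 0 h (SD, n = 3 each), a log2 change of 9.29 (SE 0.95) and a difference of at least 452-fold (limma adjusted p = 4.3e-05). At 4 h it was at least 11.1-fold higher than at 0 h (log2 3.94, SE 0.95, limma adjusted p = 0.012). The step between the last time points was 40.8-fold, 6 h over 4 h (limma adjusted p = 0.0042).

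*sgcb-1*, the beta-sarcoglycan gene, was the sarcoglycan gene measured above the reference level in every 0 h array. Its signals were 248.7, 213.8 and 226.3 at 0 h, 218.3, 51.5 and 124.1 at 2 h, 2667, 2185 and 2028 at 4 h, and 12937, 25250 and 21567 at 6 h. The 2 h arrays reached below the 0 h arrays, with 1 of them inside the 0 h range, and the 4 h and 6 h arrays stood apart from these and from each other. At 6 h the signal averaged 19918 ± 6320, against 230 ± 17.7 at 0 h (SD, n = 3 each), 83.7-fold higher (log2 6.39, SE 0.40, limma adjusted p = 2.9e-09). The 4 h signal was 9.94-fold that at 0 h (limma adjusted p = 7.9e-06). The 2 h difference, -1.04 on the log2 scale (SE 0.40), did not pass (limma adjusted p = 0.069).

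*sgca-1*, the alpha-sarcoglycan gene, had 4 probe sets, and they did not behave alike. Its lead probe set 184381_at had signals of 6.4, 102 and 15.7 at 0 h, 22.6, 11.9 and 5.5 at 2 h, 242.4, 44.1 and 191.8 at 4 h, and 12968, 14763 and 18960 at 6 h. One array of 6 at 0 h and 2 h exceeded the reference level, and the 4 h arrays overlapped the 0 h arrays. The 6 h mean was 15564 ± 3075 and the 0 h mean 41.4 ± 52.7 (SD, n = 3 each), at least 194-fold higher (log2 9.47, SE 0.87, limma adjusted p = 1.4e-07). A second probe set, 175465_at, averaged 8.7 ± 6.54 at 0 h (SD, n = 3), with 6.3 in replicate A, 3.7 in replicate C and the highest signal in replicate B, and had signals of 4.2, 4.7 and 3.6 at 2 h, 159.3, 77.8 and 135.1 at 4 h, and 13198, 16630 and 14018 at 6 h. None of its 0 h or 2 h arrays reached the reference level and all later ones exceeded it. It was at least 209-fold higher at 6 h than at 0 h (log2 10.98, SE 0.71, limma adjusted p = 6.2e-11). At 4 h against 0 h both were called, at a log2 change of 2.55 for the lead (limma adjusted p = 0.036) and 4.04 for the second (limma adjusted p = 1.2e-04), and both calls were lost with signals raised to the reference level.

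The other 2 *sgca-1* probe sets stayed dim. Signals of 175558_s_at were 69.7, 5.5 and 47.6 at 0 h, 88.2, 45.5 and 7 at 2 h, 105.2, 79.2 and 35.6 at 4 h, and 148.5, 156.6 and 135.7 at 6 h. The 6 h arrays lay above all others, and the difference from 0 h, 2.48 on the log2 scale (SE 1.07), did not pass (limma adjusted p = 0.074). Without 0 h replicate A it passed, at 3.18 (limma adjusted p = 0.042), as it did at 2.48 without 2 h replicate C (limma adjusted p = 0.046) and at 1.07 with signals raised to the reference level (limma adjusted p = 0.0035). Signals of 175593_at were 4.8, 16 and 59.1 at 0 h, 48.7, 62.2 and 67.5 at 2 h, 150.9, 7.8 and 51.9 at 4 h, and 316.6, 4.5 and 243.6 at 6 h. Replicate B at 6 h gave the lowest of its 12 signals. The log2 change of 2.09 (SE 1.45) did not pass (limma adjusted p = 0.29), and it was 4.07 without that array (limma adjusted p = 0.014) and 1.33 with signals raised (limma adjusted p = 0.018). Since this probe set entered the test only through its 6 h signals, these values are no support for a change. Both dim probe sets and the bright 175465_at were annotated to the same expressed sequence tag, and which stretch of the transcript each one reads was not tested.

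**Figure D2:**
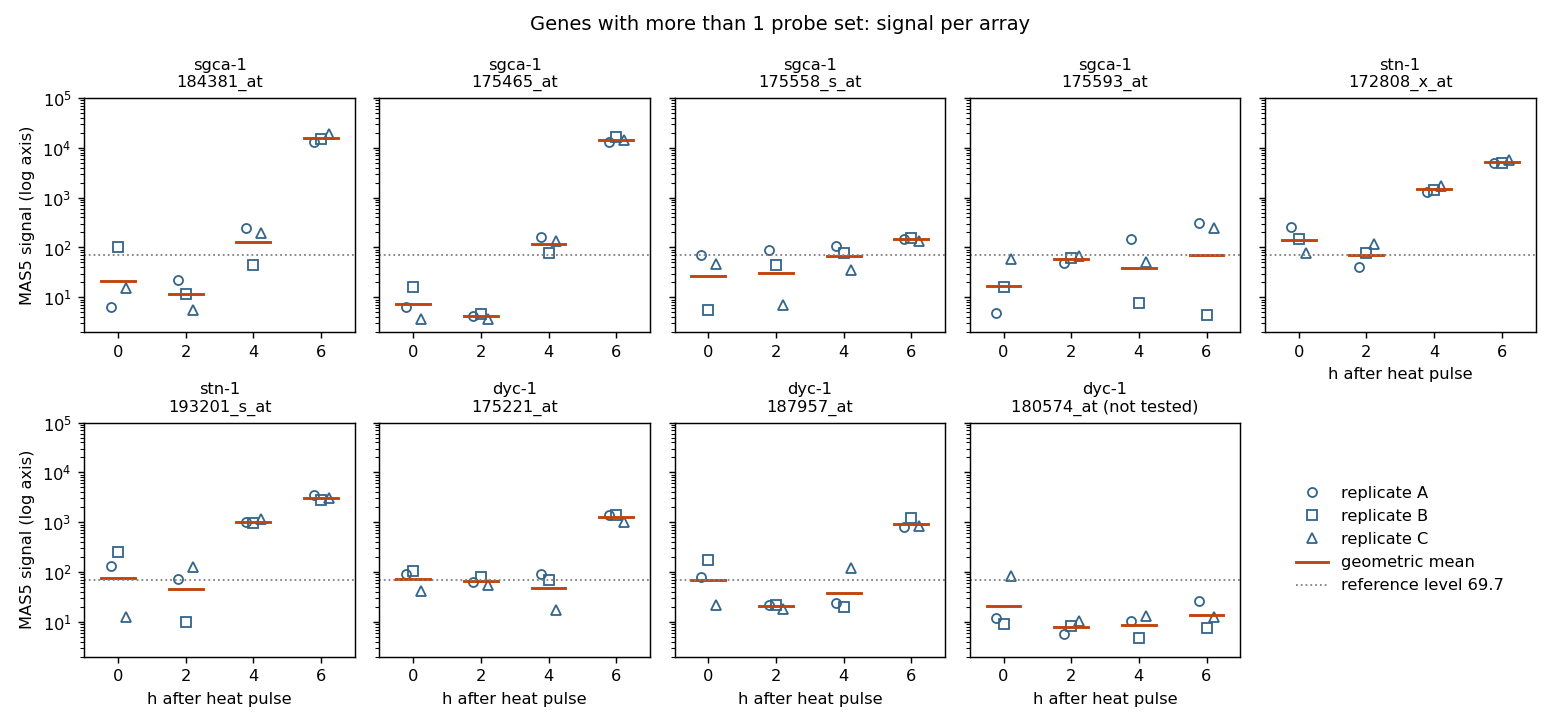
MAS5 signal (log axis) per array of all probe sets of *sgca-1*, *stn-1* and *dyc-1* at 0, 2, 4 and 6 h. Each point is 1 array, the bar is the geometric mean of 3 arrays and the dotted line is the reference level of 69.7. The first 2 *sgca-1* probe sets are at 12968 or more at 6 h, while the other 2 stay at or below 316.6.

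Syntrophins bind dystrophin and dystrobrevin and bring channels and signalling proteins to the complex. *stn-1* was read by 172808_x_at at 252, 148 and 77.8 at 0 h, 41.3, 77.5 and 117.7 at 2 h, 1319, 1394 and 1690 at 4 h, and 5015, 4915 and 5742 at 6 h. The 2 h arrays overlapped the 0 h arrays, and the 4 h and 6 h arrays formed separate higher levels. At 6 h it averaged 5224 ± 452, against 159 ± 87.6 at 0 h (SD, n = 3 each), 36.5-fold higher (log2 5.19, SE 0.38, limma adjusted p = 8.3e-10). It was 10.2-fold higher at 4 h than at 0 h (limma adjusted p = 6.9e-07) and a further 3.57-fold higher at 6 h than at 4 h (limma adjusted p = 0.0015). The second *stn-1* probe set, 193201_s_at, gave 131.2, 249.7 and 12.7 at 0 h, 73.2, 10.2 and 126.6 at 2 h, 991, 971.2 and 1154 at 4 h, and 3512, 2848 and 3042 at 6 h. It followed the same order of time points and was at least 23.7-fold higher at 6 h than at 0 h (log2 5.39, SE 1.16, limma adjusted p = 0.0049). Its call at 4 h against 0 h (log2 3.79, limma adjusted p = 0.036) was lost when 0 h replicate A or C, 2 h replicate A or any single 4 h array was left out. Its step of 3.01-fold between 4 h and 6 h did not pass (log2 1.59, SE 1.16, limma adjusted p = 0.45), although the 6 arrays did not overlap. The suffix of both IDs marks probes that match more than 1 transcript or sequence by design, so signal from a related transcript cannot be told apart in them.

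*stn-2*, the second syntrophin gene, had signals of 12, 75.4 and 5.3 at 0 h, 6.3, 6.1 and 11.5 at 2 h, 563.1, 325.3 and 604 at 4 h, and 10499, 9889 and 9687 at 6 h. A single array of the 6 at 0 h and 2 h was above the reference level, and the replicates at 6 h lay close together. The 6 h mean of 10025 ± 423, set against 30.9 ± 38.7 at 0 h (SD, n = 3 each), was at least 140-fold higher (log2 9.21, SE 0.69, limma adjusted p = 7.4e-10). It was at least 6.71-fold higher at 4 h than at 0 h (limma adjusted p = 1.1e-05) and 20.9-fold higher at 6 h than at 4 h (limma adjusted p = 9.0e-05).

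Dystrobrevin is a dystrophin relative that binds dystrophin and syntrophins. *dyb-1* remained near the reference level throughout. Its signals were 115.8, 7.2 and 15.6 at 0 h, 126.6, 123.1 and 65.1 at 2 h, 122.3, 102.1 and 108.3 at 4 h, and 85.6, 137 and 212.2 at 6 h. The 6 h and 0 h arrays overlapped, since 0 h replicate A lay above 6 h replicate A. The means were 145 ± 63.7 at 6 h, against 46.2 ± 60.4 at 0 h (SD, n = 3 each), and the log2 change of 2.53 (SE 0.88) passed (limma adjusted p = 0.027), with a fold of at least 1.64. The call was lost without 0 h replicate B (1.67, limma adjusted p = 0.13), without 0 h replicate C (2.23, limma adjusted p = 0.079), without 6 h replicate B (2.52, limma adjusted p = 0.063) and without 6 h replicate C (2.20, limma adjusted p = 0.1). It was also lost with signals raised to the reference level (0.72, limma adjusted p = 0.16) and after another scaling of the arrays. No step between later time points passed for *dyb-1*.

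DYC-1 is related to the mammalian adaptor CAPON, which binds neuronal nitric oxide synthase, and in worm muscle it lies near the dense bodies that anchor actin. Its lead probe set 175221_at had signals of 93.2, 105.3 and 41.2 at 0 h, 62.3, 80.1 and 55.6 at 2 h, 92.3, 69.8 and 17.2 at 4 h, and 1423, 1414 and 1030 at 6 h. The first 9 arrays overlapped across time points and the 6 h arrays lay well above them. At 6 h it averaged 1289 ± 224, against 79.9 ± 34.1 at 0 h (SD, n = 3 each), at least 14.5-fold higher (log2 4.11, SE 0.63, limma adjusted p = 1.8e-05). The 4 h difference from 0 h was -0.62 (SE 0.63, limma adjusted p = 0.53), and 6 h was at least 16.6-fold above 4 h (limma adjusted p = 1.2e-05). 187957_at gave 81.6, 174.7 and 22.1 at 0 h, 22, 21.4 and 18.4 at 2 h, 23.5, 19.9 and 121.3 at 4 h, and 794.9, 1215 and 823 at 6 h, and it too stood apart at 6 h. It was at least 9.28-fold higher than at 0 h (log2 3.77, SE 0.84, limma adjusted p = 0.001) and was not called at 4 h (log2 -0.82, SE 0.84). The third probe set, 180574_at, was above the reference level in 1 array, at 84.4 in 0 h replicate C, ranged between 4.7 and 26.9 in the other 11, and was not tested.

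**Figure D3:**
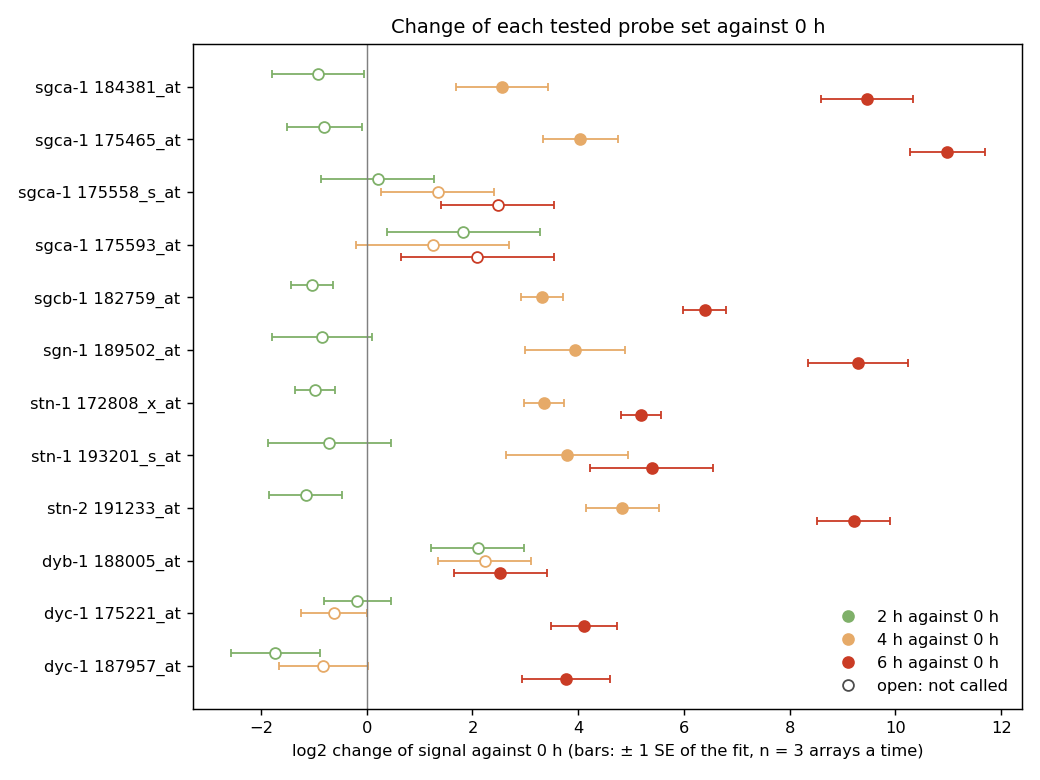
Log2 change of signal against 0 h for the 12 tested probe sets at 2, 4 and 6 h, with filled points for called changes and open points for the rest. Bars are ± 1 SE of the limma fit (n = 3 arrays at each time), and dim 0 h signals enter as measured, so large changes depend on them. At 4 h both *dyc-1* points lie below 0, at -0.62 and -0.82, whereas the sarcoglycan and syntrophin lead probe sets lie between 2.55 and 4.83.

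Steps between successive time points were compared in the same fit. Between 2 h and 4 h, 7 probe sets of 5 genes were called higher at 4 h, where 6.90% of all tested probe sets were. Between 4 h and 6 h, 8 probe sets of 6 genes were called higher at 6 h, where 7.73% of all were, and 6 h against 2 h gave 9 probe sets of 6 genes, where 14.3% of all were. Of the log2 difference between 6 h and 0 h, 51.9% was present at 4 h for *sgcb-1* and 64.6% for *stn-1* 172808_x_at, both measured above the reference level at 0 h. For the others the share depended on dim 0 h signals. With signals raised to the reference level it was 65.2% for *stn-1* 193201_s_at (70.4% as measured), 39.4% for *sgn-1* (42.4%) and 38.5% for *stn-2* (52.4%). It was 11.9% and 9.98% for the bright *sgca-1* probe sets (26.9% and 36.8% as measured), 59% for *dyb-1* (88.4%), and below 0 for both *dyc-1* probe sets under either treatment. These shares are descriptions, and differences in timing between genes were not tested.

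Across the 12 arrays the log2 signals of the lead probe sets of *sgca-1*, *sgcb-1*, *sgn-1*, *stn-1* and *stn-2* correlated with each other at Pearson r between 0.86 and 0.98, with *sgcb-1* and *sgn-1* at 0.98. *dyc-1* correlated with these 5 at 0.65 to 0.84, and *dyb-1* with the other 6 genes at 0.28 to 0.48. The arrays of one time point share their sampling time, and each array contributes all genes, so these values describe the common time course. Profiles of other genes were compared with the mean standardized profile of the 3 sarcoglycan genes, with the chosen genes left out. The closest were those of *set-18* (r = 0.992), K09G1.1 (0.991), Y73C8B.3 (0.988), CD4.1 (0.986) and the troponin T gene *tnt-3* (0.986). *tnt-3* signal averaged 58795 ± 8561 at 6 h, against 17 ± 11 at 0 h (SD, n = 3 each). Closest to the mean profile of *stn-1*, *stn-2*, *dyb-1* and *dyc-1* were W07E6.5 (0.988), *clec-233* (0.981), *unc-82* (0.980), which encodes a kinase needed for ordered thick filaments, *swsn-4* (0.978) and *hsp-25* (0.977), a small heat shock protein gene. Outside the chosen genes, 103 tested probe sets of 1 gene each had r above 0.95 to the sarcoglycan profile, and 60 to the other. The named genes are thus the top of large groups. Likeness was taken over 12 arrays and has no test.

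Other genes of the complex or linked to it were read at 1 lead probe set each. Of 11 such genes, 5 were called higher at 6 h than at 0 h and none was called lower, with a median log2 change of 0.63, where that of all tested probe sets was 0.31. Of all tested probe sets, 21.7% were called higher and 15.6% lower. *dys-1*, the dystrophin gene, whose probe set was listed under a pair of gene IDs with that symbol, had signals of 97.8, 166.4 and 103.3 at 0 h, 7.8, 18.1 and 81.7 at 2 h, 212.3, 64.5 and 200.6 at 4 h, and 729.8, 1621 and 1090 at 6 h. It was lower at 2 h than at 0 h by at least 1.62-fold (log2 -2.40, SE 0.71, limma adjusted p = 0.015), and the 2 groups did not overlap. At 6 h it was 9.15-fold higher than at 0 h (log2 3.19, SE 0.71, limma adjusted p = 0.001), while at 4 h it was not called (log2 0.24). The dystroglycan gene *dgn-1* was not called in any comparison at its lead probe set, with 315 ± 103 at 6 h, against 222 ± 62.8 at 0 h (SD, n = 3 each). Its other probe set, 174786_at, was not called against 0 h and was lower at 6 h than at 4 h (log2 -2.26, limma adjusted p = 0.035) and than at 2 h (log2 -2.41, limma adjusted p = 0.014). The relative *dgn-2* was not called. *dgn-3*, another dystroglycan relative, was at least 9.74-fold higher at 2 h than at 0 h (limma adjusted p = 3.0e-04) and was not called at 4 h or 6 h.

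The BK potassium channel SLO-1 is tied to the complex by ISLO-1 and by the alpha-catulin CTN-1. *slo-1* signal was 1069, 1113 and 981.4 at 6 h, against 7.6, 12.7 and 66.9 at 0 h, at least 15.1-fold higher at 6 h (log2 5.82, SE 0.85, limma adjusted p = 9.0e-06). *islo-1* was already higher at 2 h, by 4.33-fold over 0 h, and was 19-fold higher at 6 h (log2 4.25, SE 0.23, limma adjusted p = 5.3e-12). Its signals were 254.9, 217.6 and 254.1 at 0 h, 997.5, 1203 and 950.5 at 2 h, 1325, 820.7 and 1221 at 4 h, and 3600, 5246 and 5101 at 6 h, so that the 2 h and 4 h arrays overlapped each other and neither overlapped 0 h. The probe sets of *ctn-1* disagreed. Against 0 h, its lead probe set was called at 2 h alone (log2 1.10), with -0.10 at 6 h, whereas 2 others, 187858_at and 171788_x_at, were called at 6 h with log2 changes of 6.94 and 6.01. *zyx-1*, the zyxin gene, whose product binds DYC-1, was at least 15-fold higher at 6 h than at 0 h (log2 5.24, SE 0.65, limma adjusted p = 1.1e-06). The GABA transporter gene *snf-11* was called higher at 6 h (log2 2.18, SE 0.86), and the acetylcholine transporter gene *snf-6* (0.63) and the ubiquitin ligase gene *chn-1* (0.06) were not called.

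**Figure D4:**
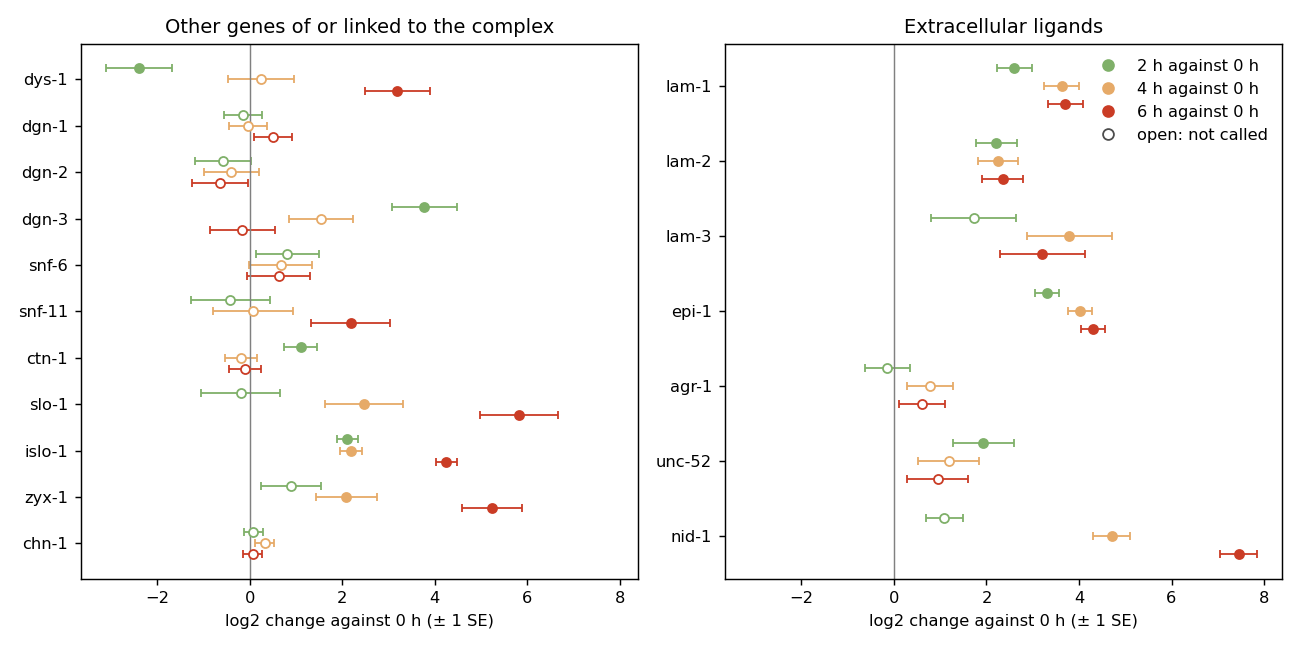
Log2 change of signal against 0 h at 2, 4 and 6 h for 11 other genes of or linked to the complex (left) and 7 genes of extracellular ligands (right), each at its lead probe set. Bars are ± 1 SE of the limma fit (n = 3 arrays at each time), filled points are called and open points are not. *slo-1*, *islo-1* and *zyx-1* lie above 4 at 6 h, and *nid-1* reaches 7.45.

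Of 7 genes of extracellular ligands and basement membrane, each read at its lead probe set, 5 were called higher at 6 h than at 0 h and none lower. Of all tested probe sets, 21.7% were called higher and 15.6% lower. At 2 h, 3 of these 5 and *unc-52* were called higher. *nid-1*, the nidogen gene, averaged 18909 ± 3146 at 6 h, against 126 ± 72.4 at 0 h (SD, n = 3 each), at least 151-fold higher (log2 7.45, SE 0.40, limma adjusted p = 8.6e-10). *epi-1*, which encodes a laminin alpha chain, was called at all 3 times, with log2 changes of 3.31 at 2 h, 4.03 at 4 h and 4.31 at 6 h. The laminin beta and gamma chain genes *lam-1* and *lam-2* were also called at all 3 times, at 3.70 and 2.35 at 6 h. The alpha chain gene *lam-3* was called at 4 h and 6 h (3.21 at 6 h). A further *lam-1* probe set, 189824_at, was called at all 3 times (3.01 at 6 h). A further *lam-2* probe set, 187258_at, was not called in any comparison (0.46 at 6 h), and *lam-3* 188440_at was not tested. The agrin gene *agr-1* was not called (0.61 at 6 h). For the perlecan gene *unc-52* the lead probe set was called at 2 h alone (1.93), and 2 of its other probe sets were called at 6 h. Of these, 174785_at had log2 changes of 4.11 at 2 h (limma adjusted p = 2.8e-04) and 2.11 at 6 h, and 172932_x_at was called at 6 h alone (3.54).

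The transgene and the tissue were checked once. *hlh-1* signal was 198.9, 348 and 195.6 at 0 h, 3684, 4023 and 2802 at 2 h, 1552, 1179 and 1342 at 4 h, and 860.8, 1520 and 1652 at 6 h, and how much of it came from the transgene was not tested. It was 14.5-fold higher at 2 h than at 0 h (limma adjusted p = 9.0e-10). Of the other myogenic regulators, *unc-120* was called higher at all 3 times (83.8-fold at 6 h), *hnd-1* was called lower at all 3 (83.5-fold at 6 h), and *pal-1* was not called at its lead probe set. A further *pal-1* probe set, 174043_at, was called lower at all 3 times (log2 -4.02, -4.10 and -3.69). It averaged 63.4 ± 91.8 at 6 h, against 351 ± 124 at 0 h (SD, n = 3 each). The remaining *pal-1* probe set, 193342_s_at, was not called in any comparison (log2 -1.72 at 6 h against 0 h). All 12 body wall muscle markers were called higher at 6 h than at 0 h, among them *cpn-3* (at least 571-fold), *mlc-2* (at least 618-fold) and *tni-1* (at least 86.5-fold). Their summed signal ranged from 339239 to 432637 over the 6 h arrays and from 1589 to 6326 over the 0 h arrays. The highest 0 h sum was that of replicate A, where *cpn-3* was 2509, against 15.7 and 33.8 in replicates B and C. There *pat-10* was 1880, against 187 and 148.5, and *mlc-2* was 317, against 94.6 and 62.7. Not all markers were raised in it, since *unc-27* was 146.8 in that array, against 243.9 and 247.2. Without that array, 11 member probe sets were called higher at 6 h, where 21% of all tested probe sets were. The call gained was that of the dim *sgca-1* 175558_s_at.

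Markers of other cell types and heat shock genes were counted in the same way. Of all tested probe sets, 21.7% were called higher at 6 h than at 0 h and 15.6% lower. At 6 h against 0 h, 3 of 17 tested neuron markers were called higher and none lower, among them *unc-47* (4.98), *unc-64* (3.90) and *ric-19* (1.29), and the summed signal of all 19 was 9545 to 13177 at 6 h and 9237 to 11764 at 0 h. Of 7 pharyngeal muscle markers, 2 were higher, *ceh-22* (3.98) and *tnc-2* (2.15), and *tni-4* was lower (-3.86), with sums of 2067 to 2560 at 6 h and 1082 to 1337 at 0 h. Of 8 epidermis markers, 3 were higher and 1 lower, among them *dpy-7* (3.99), *elt-1* (-3.92) and *nhr-25* (1.44), with sums of 2747 to 4864 at 6 h and 2325 to 2721 at 0 h. Of 8 intestine markers, 3 were lower and 1 higher, among them *end-1* (-6.86), *elt-7* (-4.27) and *cpr-6* (3.87), with sums of 1607 to 1890 at 6 h and 32875 to 42835 at 0 h. The 0 h sums were mostly *end-1*, at 29306 ± 3957 (SD, n = 3), so they say little about the other intestine markers. *elt-2* averaged 86.3 at 0 h and 93.4 at 6 h, and *ges-1* averaged 41.9 and 39.4. Of 8 tested heat shock genes, 4 were higher and none lower, among them *hsp-1* (1.82), *hsp-16.2* (1.78) and *hsp-3* (1.46), with sums of 4869 to 6655 at 6 h and 1769 to 2894 at 0 h. No marker list summed to 0 in any array, but the lowest deposited signal was 0.3, so this does not show that a marker was detected. The part of these markers in the changes of the complex genes was not tested.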

How the data were processed

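The authors deposited intensity values made with MAS5 (version not given in the sources used here), linear in scale, with every array brought to a common trimmed mean (500.2 to 500.3 with 2% left off at each end, as checked on the values). Upstream, total RNA had been copied to cDNA, amplified in 20 PCR cycles and labeled with biotin. The number of arrays, 3 for each time, limits the precision.

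The deposited signals were taken to log2 as they stood. After 77 controls were removed from 22625 probe sets, 81% of the rest, 18264, had a signal above 69.7 in at least 3 arrays and were tested. Probe sets were named from the platform annotation of GEO, in which 20810 had 1 gene, 843 several and 895 none, and RefSeq held the locus of all 13 member probe sets. Groups were taken from the sample descriptions. One limma fit (version 3.58.1, in R 4.3.3) held all 12 arrays in 4 groups, with a variance trend and robust estimation, and Benjamini-Hochberg adjustment ran over all tested probe sets of a contrast. The fit was tested on simulated data. All pairs of times were compared. Within-group correlations of log2 signal were 0.835 to 0.884, and the labels name no batch that differs among arrays.

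The members and lists were chosen with earlier results of these data known. Named were all member probe sets, the lead probe set of every listed gene of or linked to the complex, ligand and myogenic regulator, up to 3 called genes of each marker list with the largest change at 6 h, and the 5 genes most like each member group. Other probe sets of *ctn-1*, *unc-52*, *dgn-1*, *pal-1* and the *lam* genes and single array values were named after their values were seen. So were the further markers given beside a summed signal. Alternatives were another scaling, a quantile normalization, other filters, raised signals, a fit without trend, a fit of 2 groups, a replicate block, fold alone and leaving out each array.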

Additional observations from a re-analysis of the deposited data

How the results depend on the processing

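Over all alternatives, 10 of 252 counts of called member probe sets moved by more than 1.5 times, and of 235 values for single probe sets at 6 h against 0 h, 8 lost the call, 5 gained it and 0 changed direction. The counts that moved were those near 0. Member probe sets called lower at 2 h numbered 1 after quantile normalization and 1 with signals raised to the reference level (*sgcb-1* in both), 7 by fold alone, and 0 to 3 when single arrays were left out, with 3 without 0 h replicate C (*stn-1*, *stn-2* and *dyc-1*), 2 without 2 h replicate A (*sgcb-1* and *sgn-1*), and 1 without 2 h replicate C (*stn-1*) or without 6 h replicate A (*sgcb-1*). Of all tested probe sets, 10.2% were lower at 2 h after quantile normalization, 11.2% with signals raised and 24.9% by fold alone. With single arrays left out, 7.93% to 10.3% were lower. Member probe sets called higher at 2 h numbered 2 by fold alone and 0 to 1 when single arrays were left out. *dyb-1* was called without 0 h replicate A. By fold alone 1 was lower at 4 h, namely *dyc-1*. The cause was not tested, beyond that the fold alone uses no test.

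The count higher at 6 h against 0 h lay between 9 and 12, that at 4 h against 0 h between 5 and 10, and that at 4 h against 2 h between 5 and 9. The upper ends came from fold alone, by which 38.4%, 32.3% and 22.8% of all tested probe sets were higher. All of the losses at 6 h were *dyb-1*, which also missed with the arrays scaled to one median (2.17, limma adjusted p = 0.061), after quantile normalization (2.21, limma adjusted p = 0.064) and with 2 groups alone in the fit (2.53, limma adjusted p = 0.093), and was not tested with the reference level at the 60th percentile. At 4 h against 0 h the calls of *sgca-1* 184381_at and *stn-1* 193201_s_at, both at an adjusted p of 0.036 in limma, were the ones lost. The *sgca-1* call was lost without 0 h replicate A or C, 2 h replicate B or C, or 4 h replicate A or C, and the *stn-1* call without 0 h replicate A or C, 2 h replicate A, or any 4 h array. Both were lost with 2 groups alone in the fit and with the replicate block, and the *sgca-1* call also without trend and robust estimation. With signals raised, both bright *sgca-1* probe sets lost the call at 4 h and both dim ones gained it at 6 h. With arrays scaled to one median, the median log2 change of all tested probe sets at 6 h against 0 h was -0.05 in place of 0.31, and 16.8% were called higher and 19.4% lower in place of 21.7% and 15.6%. Samples with the same letter did not deviate together (r between -0.03 and 0.03 over 18 pairs, 3 of 12 arrays closest to their own letter), and the letters only number the samples. With the replicate block 10 member probe sets were called higher at 6 h and 5 at 4 h, where 21.3% and 16.8% of all tested probe sets were.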
